A study of Mus musculus with 3 samples.

Results

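The Fgf signalling genes described here were 39 of the 17097 genes that the arrays measured by a probe set with a single gene symbol. They were chosen by symbol: the Fgf ligand family, the receptor genes Fgfr1 to Fgfr4 and Fgfrl1, the co-receptor gene Klb, the Sprouty genes (Spry), the Spred genes, Dusp6 and the ETS factor genes Etv1, Etv4 and Etv5. A gene with several probe sets was represented by the brightest. The adaptor gene Frs2 was not analysed here. The study held 1 group and no controls: mammary cells sorted as CD49fHi Lgr5Hi at embryonic day 14 and profiled on 3 Affymetrix arrays. The embryos were females carrying Lgr5-IRES-GFP. CD49f is the integrin alpha 6 chain of basal epithelial cells, and the green reporter follows Lgr5, an R-spondin receptor gene. Each array carried RNA of the pooled female embryos of a different litter, amplified from 813 or 2000 sorted cells. Which pool had which number of cells is not given in the sources used here. Both epidermis and mammary gland went into the digest before sorting.

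Fibroblast growth factors are secreted proteins that bind receptor tyrosine kinases together with heparan sulfate. The receptors signal through docking proteins to the Ras and ERK kinases. ERK activity induces ETS factors, and it also induces Sprouty proteins, Spred proteins and the phosphatase Dusp6, which restrain the same pathway. In the mouse embryo, Fgf10 made outside the epithelium and its epithelial receptor, a splice form of Fgfr2, are needed for most mammary placodes to form.

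Values were log2 expression per probe set. Background was defined on each array as the 95th percentile of 74 olfactory and vomeronasal receptor genes. On replicates 1, 2 and 3 this threshold was 6.14, 6.17 and 5.99 (log2). A gene was called above background when its mean distance above the threshold passed limma's one-sided test at an adjusted p of 0.05. Distances from the threshold are compared only as margins of detection. They do not rank transcript levels of different genes, because probe sets differ in brightness. All 5 genes checked for the sort were above background: Lgr5 stood 4.17 ± 0.24 above the threshold on the log2 scale (SE, n = 3), Itga6 4.27 ± 0.22, Trp63 4.42 ± 0.22, Krt5 6.05 ± 0.11 and Krt14 5.28 ± 0.16. Genes that should be silent in these cells also gave calls, since 13 of 47 genes restricted to tissues such as testis, retina or pituitary were above background. Stricter thresholds were also set from these tissue-restricted genes (log2 values of 7.74, 7.67 and 7.38) and from the brightest of the control probe sets for nonspecific hybridisation (7.36, 7.31 and 7.48). Markers of mesenchyme were present in the sorted pools: 12 of 13 were above background, with Pdgfra (4.62, 4.52 and 5.52) as the exception. Replicate 3 had a median log2 value of 6.52 over all probe sets, against 6.25 on both other arrays.

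Of the 39 Fgf signalling genes, 21 (53.8%) were above background. Among all genes tested the share was 55.1%, so the 39 genes were detected at about the share of all genes. The median distance from the threshold was 0.45 for the 39 genes and 0.78 for all genes, on the log2 scale. The calls were unevenly spread over the roles. Feedback inhibitor genes gave 7 of 8, receptor and co-receptor genes 4 of 6, ETS factor genes 2 of 3, secreted paracrine ligand genes 6 of 15, endocrine ligand genes 1 of 3 and the homologous factor genes 1 of 4. Under both stricter thresholds 8 of the 39 stayed above background, namely Fgf18, Fgfr1, Fgfr2, Spry1, Spry2, Spry4, Spred1 and Spred2. Of all genes, 24.1% passed these as well. The same 8 genes were also called under each of the 11 alternative settings tried.

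**Figure D1:**
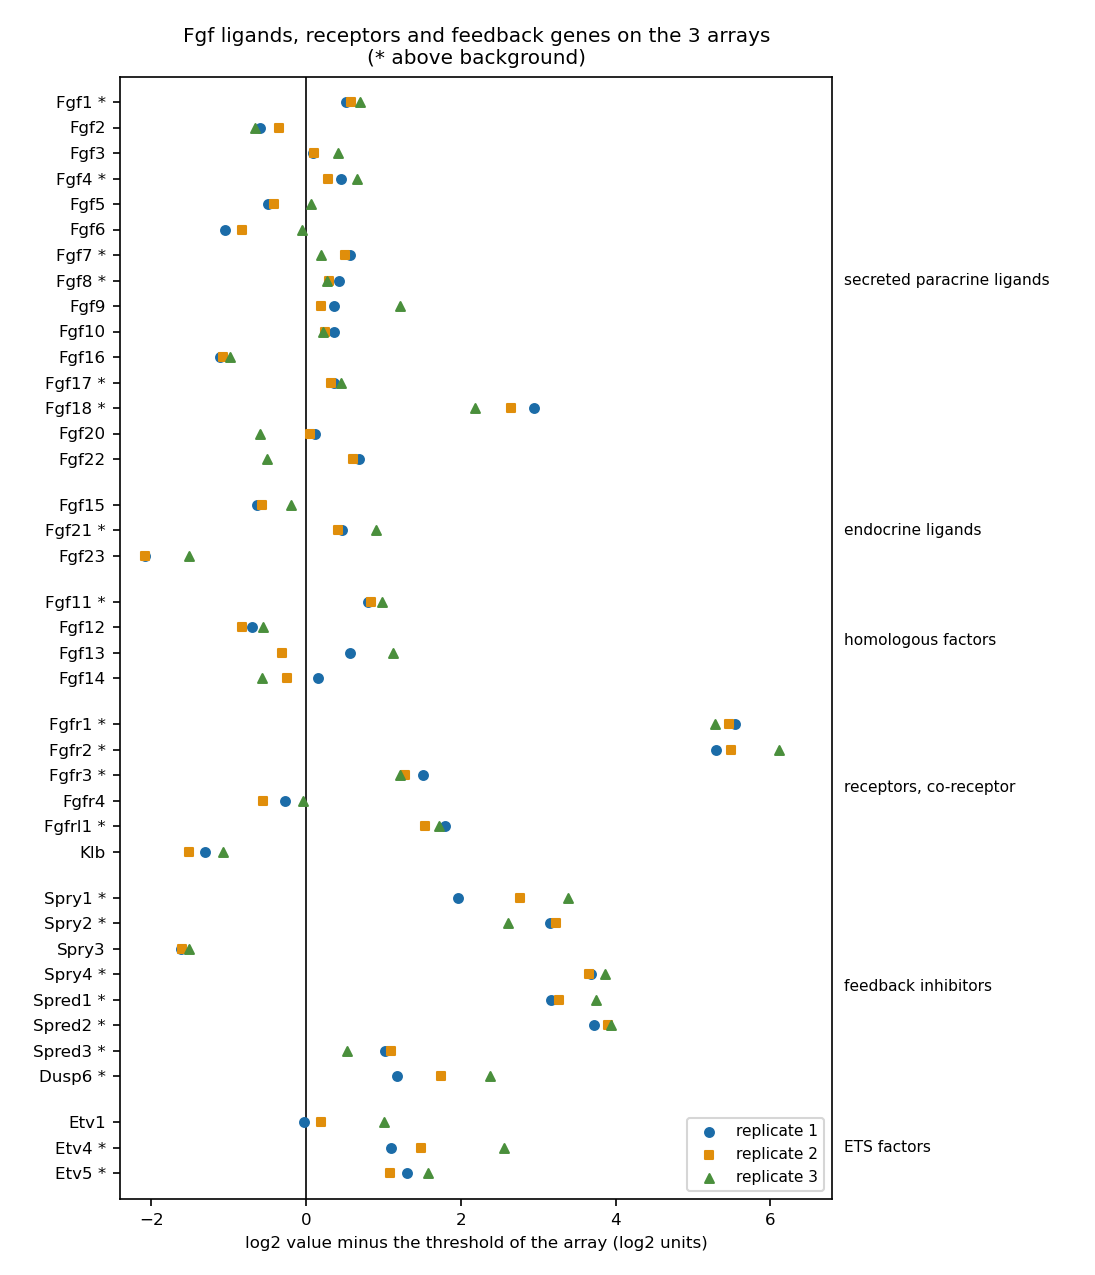
Each point is the log2 value of a gene on an array minus the threshold of that array (horizontal axis, log2 units), for the 39 genes grouped by role, with circles, squares and triangles for replicates 1, 2 and 3. Asterisks mark the 21 genes above background, and the points of Fgfr1, Fgfr2, Fgf18 and most Sprouty and Spred genes lie far to the right of the line at 0, while most ligand genes lie close to it.

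Upstream sequences are shown for Dusp6, Spry1 and Fgf18, whose values ranged by more than 0.9 over the arrays, and for the receptor gene Fgfr2. Etv4 ranged by 1.30, and its upstream sequence was not used here. The genes shown were chosen after their values were seen. Each is the 250 bases before the RefSeq start of the gene, in build GRCm38.p6, written 5′ to 3′ on the strand of the gene. Capitals mark GGAA, the core that ETS factors such as Etv4 and Etv5 recognise, on either strand (TTCC where it lies on the opposite strand).
Dusp6, chr10:99262981-99263230, plus strand: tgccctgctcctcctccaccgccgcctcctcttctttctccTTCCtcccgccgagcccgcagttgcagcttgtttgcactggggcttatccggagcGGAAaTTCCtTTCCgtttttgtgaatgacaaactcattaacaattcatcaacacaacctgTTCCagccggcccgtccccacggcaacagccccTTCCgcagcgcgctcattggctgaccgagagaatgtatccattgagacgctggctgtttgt
Spry1, chr3:37639697-37639946, plus strand: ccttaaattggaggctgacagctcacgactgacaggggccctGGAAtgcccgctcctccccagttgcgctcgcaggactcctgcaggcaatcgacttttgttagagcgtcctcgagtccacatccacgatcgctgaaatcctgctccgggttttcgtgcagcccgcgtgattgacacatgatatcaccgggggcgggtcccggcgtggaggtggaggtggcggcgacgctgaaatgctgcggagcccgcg
Fgf18, chr11:33147401-33147650, minus strand: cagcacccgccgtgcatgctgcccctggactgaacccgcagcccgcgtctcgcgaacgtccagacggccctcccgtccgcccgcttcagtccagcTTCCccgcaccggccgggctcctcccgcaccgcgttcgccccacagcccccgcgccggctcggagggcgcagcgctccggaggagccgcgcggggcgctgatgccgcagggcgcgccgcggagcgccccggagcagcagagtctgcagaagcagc
Fgfr2, chr7:130266809-130267058, minus strand: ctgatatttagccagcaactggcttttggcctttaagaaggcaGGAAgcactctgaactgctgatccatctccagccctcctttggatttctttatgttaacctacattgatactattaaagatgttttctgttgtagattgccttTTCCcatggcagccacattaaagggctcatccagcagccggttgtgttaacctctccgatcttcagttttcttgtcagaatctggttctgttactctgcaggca
The Dusp6 window held 6 GGAA cores, against 2 for Fgfr2 and 1 each for Spry1 and Fgf18. The median over 32841 RefSeq windows of this length was 3, and 93.5% of them held at least 1 core. The longer form CCGGAA, found in 3950 of all windows, was in none of these 4. Of 29 Fgf signalling genes with a window in the table, 28 held GGAA and 4 held CCGGAA. A match describes letters and not a bound site.

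Both main receptor genes gave a strong signal. Fgfr2, the receptor of Fgf7 and Fgf10 in its epithelial splice form, read 11.44, 11.66 and 12.11 (log2) on replicates 1, 2 and 3. That was 5.63 ± 0.19 above the threshold (SE, n = 3; adjusted p = 2.00e-05). Fgfr1, whose product serves widely in mesenchyme and other tissues, had 11.68, 11.64 and 11.28, or 5.43 ± 0.11 above it (adjusted p = 8.72e-06). Replicate 3 was the highest array for Fgfr2 and the lowest for Fgfr1. The splice forms of the receptors were not separated here.

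Fgfr3 and Fgfrl1 were detected closer to background. Fgfr3, a receptor gene known from cartilage and stratified epithelium, read 7.66, 7.45 and 7.20 (log2) on replicates 1, 2 and 3, which was 1.33 ± 0.15 above the threshold (SE, n = 3; adjusted p = 0.000547). Fgfrl1, which encodes a receptor-like protein without a kinase domain, had 7.94, 7.70 and 7.70, or 1.68 ± 0.15 above it (adjusted p = 0.000258). Every array lay above its receptor-gene threshold for both. Neither was called with tissue-restricted genes or the brightest control as background, where Fgfr3 stood at -0.16 relative to the tissue-restricted threshold. Fgfr4 had 5.87, 5.62 and 5.94 and was below the threshold on each array. Klb, the co-receptor gene for Fgf21 and mouse Fgf15, had 4.84, 4.65 and 4.91 and was also below it throughout.

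All Sprouty and Spred genes except Spry3 were above background. Spry1 read 8.11, 8.94 and 9.38 (log2) on replicates 1, 2 and 3, which was 2.71 ± 0.30 above the threshold (SE, n = 3; adjusted p = 0.000538). Spry2 had 9.29, 9.40 and 8.60, or 3.00 ± 0.19 above it (adjusted p = 8.98e-05). Spry4 had 9.82, 9.83 and 9.86, or 3.73 ± 0.15 above it (adjusted p = 2.66e-05). Sprouty proteins are intracellular brakes on Ras and ERK signalling downstream of receptor tyrosine kinases. The 3 arrays were nearly level for Spry4, whereas replicate 1 was lowest for Spry1 and replicate 3 was lowest for Spry2. Spry3 was the exception among the Sprouty genes, with 4.53, 4.56 and 4.48, below the threshold on each array.

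Spred proteins bind Ras regulators at the membrane and limit activation of the Raf kinases. Spred1 read 9.31, 9.43 and 9.73 (log2) on replicates 1, 2 and 3, which was 3.39 ± 0.18 above the threshold (SE, n = 3; adjusted p = 5.58e-05). Spred2 had 9.86, 10.08 and 9.93, or 3.85 ± 0.14 above it (adjusted p = 2.53e-05). Both were clear of the stricter thresholds as well. Spred3 was detected with less margin, at 7.16, 7.27 and 6.51, or 0.88 ± 0.17 above the threshold (adjusted p = 0.00452), and it was not called under the tissue-restricted or the control threshold. Dusp6, which encodes an ERK phosphatase, had 7.31, 7.91 and 8.36, or 1.76 ± 0.27 above the threshold (adjusted p = 0.00164). Dusp6 ranged by 1.05 over the arrays, and it was not called with tissue-restricted genes as background (adjusted p = 0.630) or with the brightest control as threshold.

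Etv4 and Etv5, ETS transcription factor genes that are widely used as readouts of Fgf signalling, were above background. Etv4 read 7.24, 7.66 and 8.54 (log2) on replicates 1, 2 and 3, which was 1.71 ± 0.31 above the threshold (SE, n = 3; adjusted p = 0.00344). Etv5 had 7.44, 7.26 and 7.57, or 1.32 ± 0.17 above it (adjusted p = 0.000818). Replicate 3 was the highest array for both as deposited. After quantile normalization it differed from the mean of the other arrays by 0.70 for Etv4 and -0.14 for Etv5. Etv1, a related gene, had 6.11, 6.37 and 7.00, crossed the threshold on 2 arrays and was not above background (adjusted p = 0.137). None of the 3 ETS genes was called by limma under the tissue-restricted or control threshold, and none had an unadjusted p under 0.05 there. Etv5 entered by its only probe set with a single symbol. The 2 probe sets annotated to both Etv5 and Scpep1 read 8.65, 8.52 and 8.56, and 7.93, 7.97 and 8.88. These lay over the tissue-restricted threshold on each array and were not tested.

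Fgf18 was the only ligand gene that stood well clear of background. It read 9.09, 8.81 and 8.17 (log2) on replicates 1, 2 and 3, which was 2.59 ± 0.21 above the threshold (SE, n = 3; adjusted p = 0.000168). Under the 11 alternatives its distance ran between 1.09 and 2.81, with adjusted p of at most 0.00863. Fgf18 belongs to the Fgf8 subfamily and is known for roles in bone, lung and hair growth. Replicate 3 was its lowest array. Its subfamily relatives Fgf8 and Fgf17 passed narrowly: Fgf8 had 6.57, 6.47 and 6.26 (0.33 ± 0.12 above the threshold, adjusted p = 0.0410), and Fgf17 had 6.50, 6.50 and 6.44 (0.38 ± 0.12, adjusted p = 0.0261). Neither was called with the 99th percentile of the olfactory and vomeronasal receptor genes as threshold. Both also lost their calls without replicate 1 and without replicate 2, in fits of 2 arrays each. Fgf17 was not called with the mean of its probe sets.

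Ligand genes of the Fgf7 subfamily, whose products act on the epithelial form of Fgfr2, were at or near the threshold. Fgf7, also called keratinocyte growth factor, read 6.71, 6.68 and 6.19 (log2) on replicates 1, 2 and 3, or 0.42 ± 0.14 above the threshold (SE, n = 3; adjusted p = 0.0290). Fgf10 had 6.50, 6.41 and 6.20, or 0.27 ± 0.12 above it (adjusted p = 0.0689). Fgf3, a ligand gene of the inner ear and other embryonic epithelia, had 6.23, 6.28 and 6.40 (adjusted p = 0.171). All 3 genes exceeded the threshold on each array, and only Fgf7 passed the test. Fgf22 had 6.83, 6.78 and 5.48, with replicate 3 below the threshold and the other arrays above it (adjusted p = 0.318). Fgf10 and Fgf22 were called without replicate 3, and Fgf7 lost its call without replicate 1 and without replicate 2. Those fits rest on 2 arrays each. Fgf10 and Fgf3 were called with the mean of all probe sets of each gene, a setting that also lowered the threshold to 5.93, 5.91 and 5.80. Fgf10 has 1 probe set, so its own value did not change, and the mean of Fgf3 was 6.28, against 6.30 for its brightest probe set.

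Among the remaining paracrine ligand genes, Fgf1 and Fgf4 were above background. Fgf1, which encodes acidic Fgf, read 6.66, 6.75 and 6.69 (log2) on replicates 1, 2 and 3, or 0.60 ± 0.13 above the threshold (SE, n = 3; adjusted p = 0.00627). Fgf4, a ligand gene of the early embryo and limb, had 6.59, 6.45 and 6.65, or 0.46 ± 0.14 above it (adjusted p = 0.0215). Both were brought under the threshold by the stricter backgrounds. Fgf9, a ligand gene of several embryonic epithelia, had 6.50, 6.37 and 7.20 and narrowly missed the test (0.59 ± 0.24, adjusted p = 0.0512). It was called without replicate 1, without replicate 2 and without replicate 3, and also after quantile normalization and with dim genes left out. Fits without a replicate rest on 2 arrays and lean on the variance prior. Without replicate 3 the distance of Fgf9 was smaller than with all arrays (0.28), while its adjusted p by limma was lower (0.00865). Fgf2, the basic Fgf gene, had 5.54, 5.82 and 5.32 and was below the threshold on each array, as were Fgf6 (5.09, 5.35 and 5.94) and Fgf16 (5.03, 5.10 and 5.01). Fgf5, known for ending hair growth, had 5.65, 5.75 and 6.05, and Fgf20, a ligand gene of hair placodes, had 6.25, 6.22 and 5.39. Neither was above background. The count of 6 paracrine ligand genes was 2 without replicate 1, 2 without replicate 2 and 9 without replicate 3.

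The endocrine ligands travel in blood and signal through Klotho co-receptors. Fgf21, known as a metabolic hormone of liver, read 6.61, 6.59 and 6.89 (log2) on replicates 1, 2 and 3, which was 0.60 ± 0.16 above the threshold (SE, n = 3; adjusted p = 0.0139). It was not called under either stricter background. Fgf15 (5.51, 5.60 and 5.80) and Fgf23 (4.06, 4.09 and 4.47) were below the threshold on each array. The homologous factors Fgf11 to Fgf14 stay inside cells and are known to bind sodium channels. Fgf11 had 6.94, 7.01 and 6.98, or 0.87 ± 0.13 above the threshold (adjusted p = 0.00177), and was not called under the stricter backgrounds either. Fgf12 (5.45, 5.35 and 5.43) was below the threshold on each array. Fgf13 had 6.70, 5.86 and 7.11, with replicate 2 apart from the others and below the threshold. It was called without replicate 2, in a fit that rests on 2 arrays. Fgf14 (6.30, 5.93 and 5.42) exceeded the threshold on replicate 1 alone.

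Several genes were measured by more than 1 probe set, and these did not always give the same answer. The 39 genes had 78 probe sets, of which 35 were above background when probe sets were tested separately, against 49.2% of all probe sets of a single gene. Of the 22 genes with several probe sets, 5 had all of them above background (Fgfr1, Fgfr2, Fgfr3, Fgfrl1 and Spry2), 10 had none, and 7 had them on both sides (Fgf1, Fgf4, Fgf11, Fgf17, Spry4, Spred1 and Spred2). The 3 probe sets of Fgfr1 had mean log2 values of 11.53, 8.92 and 7.76, and those of Fgfr2 had 11.73, 11.61 and 6.79. All 5 probe sets of Fgfr4 lay below the threshold. Spry4 had 3 probe sets above background and another at -1.24 from the threshold, which read 4.12, 4.15 and 6.33. Behind the nearly level brightest Spry4 probe set, the next was highest on replicate 3 (7.65, 7.75 and 8.69). The dimmest of those above background was lowest there (7.76, 7.79 and 7.20). For Spry2 the brighter probe set was lowest on replicate 3, and the other one, at 8.58, 8.68 and 9.83, was highest there. The direction of replicate 3 for Spry2 therefore depended on the probe set. Fgfr3 and Fgfrl1 were alike in this, since their dimmer probe sets were highest on replicate 3 (6.68, 6.79 and 7.31 for Fgfr3, and 7.14, 7.16 and 7.92 for Fgfrl1). Both further probe sets of Fgfr2 were highest on replicate 3, as was the brightest. Of the further Fgfr1 probe sets, the dimmest was lowest on replicate 3 (8.17, 8.10 and 7.02) and the other lowest on replicate 2 (9.00, 8.86 and 8.91). Fgf4 was called by 1 of its 4 probe sets, and the mean of the 4 was 0.35 below the threshold.

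**Figure D2:**
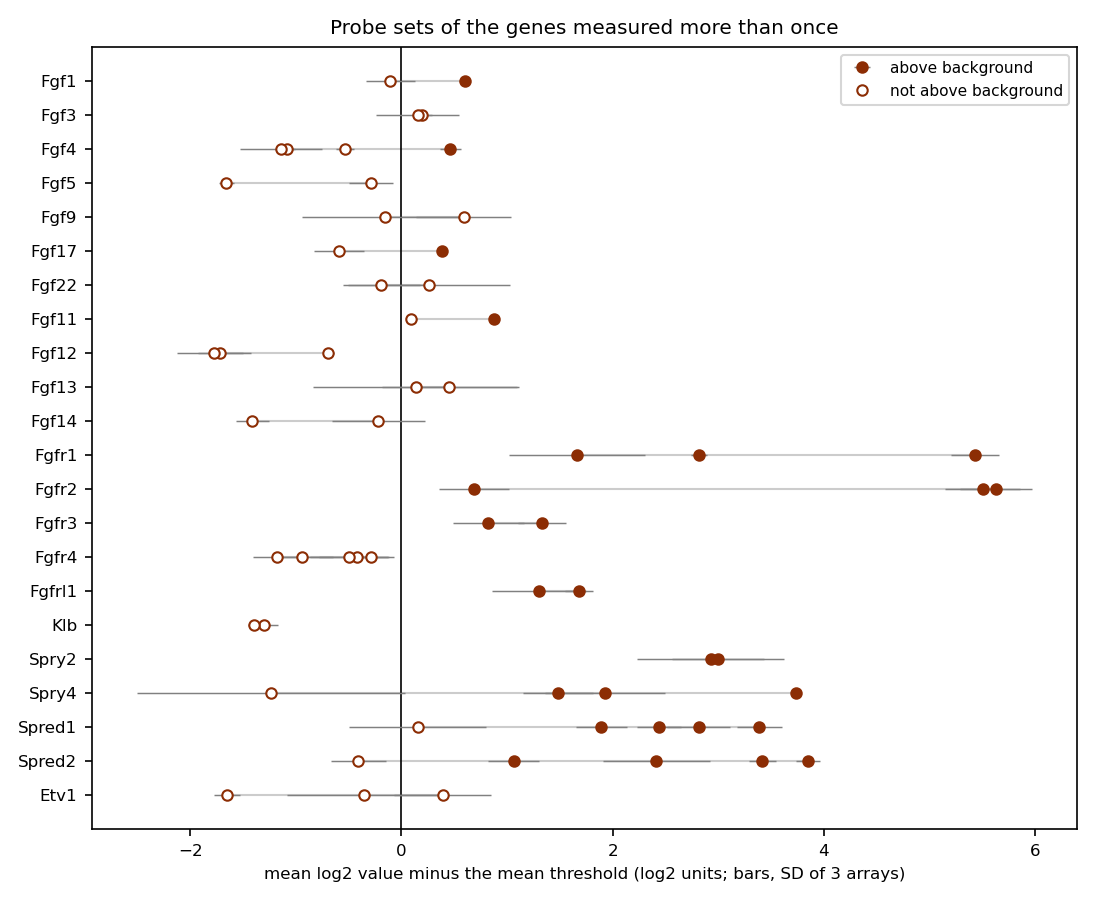
Each point is a probe set of the 22 genes measured more than once, placed at its mean log2 value minus the mean threshold (horizontal axis, log2 units), with bars for the SD of 3 arrays. Filled points were above background when probe sets were tested separately, and the receptor genes Fgfr1 and Fgfr2 show spreads of several log2 units between probe sets of the same gene.

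Genes of the wider pathway were described by lists chosen with earlier results of these data known. Of 19 measured genes of the Ras and ERK relay, 16 were above background, with a median of 3.25 above the threshold. The adaptor genes Grb2 (8.71 ± 0.13, SD, n = 3), Shc1 (9.19 ± 0.12) and Gab1 (9.75 ± 0.26) were among them. The Ras exchange factor genes Sos1 (4.26 ± 0.31) and Sos2 (6.39 ± 0.97) were not. Of 13 further modulators 10 were above background (median 2.48), including Il17rd, which encodes the inhibitor Sef (6.93 ± 0.44), and the receptor-binding transmembrane protein genes Flrt1 (8.58 ± 0.48) and Flrt2 (9.36 ± 0.55). Kl, the Klotho gene (5.52 ± 0.17), and Fgfbp1, which encodes a carrier of Fgf proteins (6.15 ± 0.33), were not above background. Il17rd was under both stricter thresholds.

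Heparan sulfate enzymes build the chains that hold Fgf on its receptor, and 7 of 9 measured genes were above background (median 2.05). The chain polymerase genes Ext1 (9.69 ± 0.33, SD, n = 3) and Ext2 (7.78 ± 0.13) and the initiating enzyme gene Extl3 (10.66 ± 0.15) were detected. The sulfotransferase genes Ndst2 (5.96 ± 0.66) and Hs6st3 (6.28 ± 0.06) were not. Genes linked to ERK activity were above background in 11 of 11 cases (median 2.76). Among them were the immediate early genes Egr1 (12.44 ± 0.14), Fos (11.74 ± 0.46) and Fosl1 (8.86 ± 0.27). Cic, Etv3 and Elk3 were also on this list, and induction of its genes by ERK was not tested. Immediate early genes respond to many stimuli besides Fgf. With 55.1% of all genes above background at a median of 0.78, the 4 lists were detected at higher shares, and no test of the lists was made.

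Each litter was measured once, so differences between litters are described and not tested. Litter, number of sorted cells and array processing cannot be told apart. The 21 genes above background had a median SD of 0.22 (log2), against 0.26 for all genes above background. A range of more than 1 was found for 3 of the 21 (Dusp6, Etv4 and Spry1), and for 14.0% of all genes above background. After quantile normalization the range exceeded 1 for 3 others (Fgf18, Spred3 and Spry2), against 11.3% of all genes, and no longer for Dusp6, Etv4 or Spry1. In Dusp6, Etv4 and Spry1, replicate 1 was lowest and replicate 3 highest. Relative to the mean of the other arrays, replicate 1 differed by -1.05 for Spry1, -0.83 for Dusp6 and -0.86 for Etv4 (log2 difference). Replicate 3 differed from the others by 0.86, 0.75 and 1.09 for the same genes. After quantile normalization these differences were -0.84, -0.64 and -0.67 for replicate 1 and 0.43, 0.35 and 0.70 for replicate 3.

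In all, 6 of the 21 genes (Dusp6, Etv4, Fgfr2, Spred1, Spry1 and Spry4) were lowest on replicate 1 and highest on replicate 3, as were 30.1% of all genes above background. The opposite order, highest on replicate 1 and lowest on replicate 3, was found for 7 (Fgf7, Fgf8, Fgf17, Fgf18, Fgfr1, Fgfr3 and Fgfrl1), and for 16.5% of all genes above background. Some of these orders rest on small ranges, 0.04 for Spry4 and 0.06 for Fgf17 (log2). After quantile normalization Spry4 and Spred1 left the first set and Etv5 and Fgf4 joined the second, with shares of 17.9% and 30.2% among all genes. Fgf18 was higher on replicate 1 by 0.60 than the mean of the other arrays and differed by -0.78 on replicate 3. The corresponding values were 0.23 and -0.39 for Fgfr1, and -0.44 and 0.56 for Fgfr2. By their brightest probe sets, Fgfr1 and Fgfr2 therefore moved in opposite directions over the litters, and they did so after quantile normalization too (0.39 and -0.72 for Fgfr1, -0.33 and 0.32 for Fgfr2).

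Markers of epithelium and mesenchyme moved over the same arrays. Of 12 epithelial markers, all above background, 8 were lowest on replicate 1 and highest on replicate 3 and none had the opposite order. Of the 12 mesenchymal markers above background, 7 were highest on replicate 1 and lowest on replicate 3, and none had the order of the epithelial genes. After quantile normalization 4 of the 12 epithelial markers were lowest on replicate 1 and highest on replicate 3 and 1 had the opposite order, while 10 of the 12 mesenchymal markers were highest on replicate 1 and lowest on replicate 3. The median difference of replicate 1 from the other arrays was -0.47 for the epithelial and 0.18 for the mesenchymal genes, against -0.11 for all genes above background. For replicate 3 it was 0.49 and -0.19, against 0.24 for all genes. After quantile normalization it was -0.27 and 0.36 for replicate 1, against 0.08 for all genes, and 0.06 and -0.48 for replicate 3, against -0.13 for all genes. The summed linear signal of the epithelial list was 16007, 19838 and 21601 on replicates 1, 2 and 3, and that of the mesenchymal list 31549, 28767 and 26273. Pdgfra was the mesenchymal marker not above background, and no epithelial marker was below it. By their brightest probe sets, Fgfr2, Dusp6, Etv4 and Spry1 shared their array order with 8 of the epithelial markers as deposited. After quantile normalization they shared it with 4. This order was that of 30.1% and 17.9% of all genes above background. Fgf7, Fgf8, Fgf17, Fgf18, Fgfr1, Fgfr3 and Fgfrl1 shared theirs with 7 and 10 of the mesenchymal markers, and with 16.5% and 30.2% of all genes above background. The part of cell composition in these differences was not tested, and in pooled cells fewer cells of a type and less RNA per cell cannot be told apart. Other cell types were detected less: 2 of 8 endothelial, 3 of 8 leukocyte, 2 of 8 skeletal muscle, 4 of 9 neural or melanocyte and 2 of 6 erythroid markers were above background, and Ptprc, Cdh5 and Gata1 were not. Among those above background were Cd68, Klf1, Pecam1 and Erbb3, at 2.73, 2.05, 1.53 and 3.02 above the threshold. Erbb3 was lowest on replicate 1 and highest on replicate 3 (8.80, 8.95 and 9.61), the order of 8 of the epithelial markers. The shares of these lists were 25%, 37.5%, 25%, 44.4% and 33.3%. They stand against 55.1% of all genes and 27.7% of the tissue-restricted genes.

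**Figure D3:**
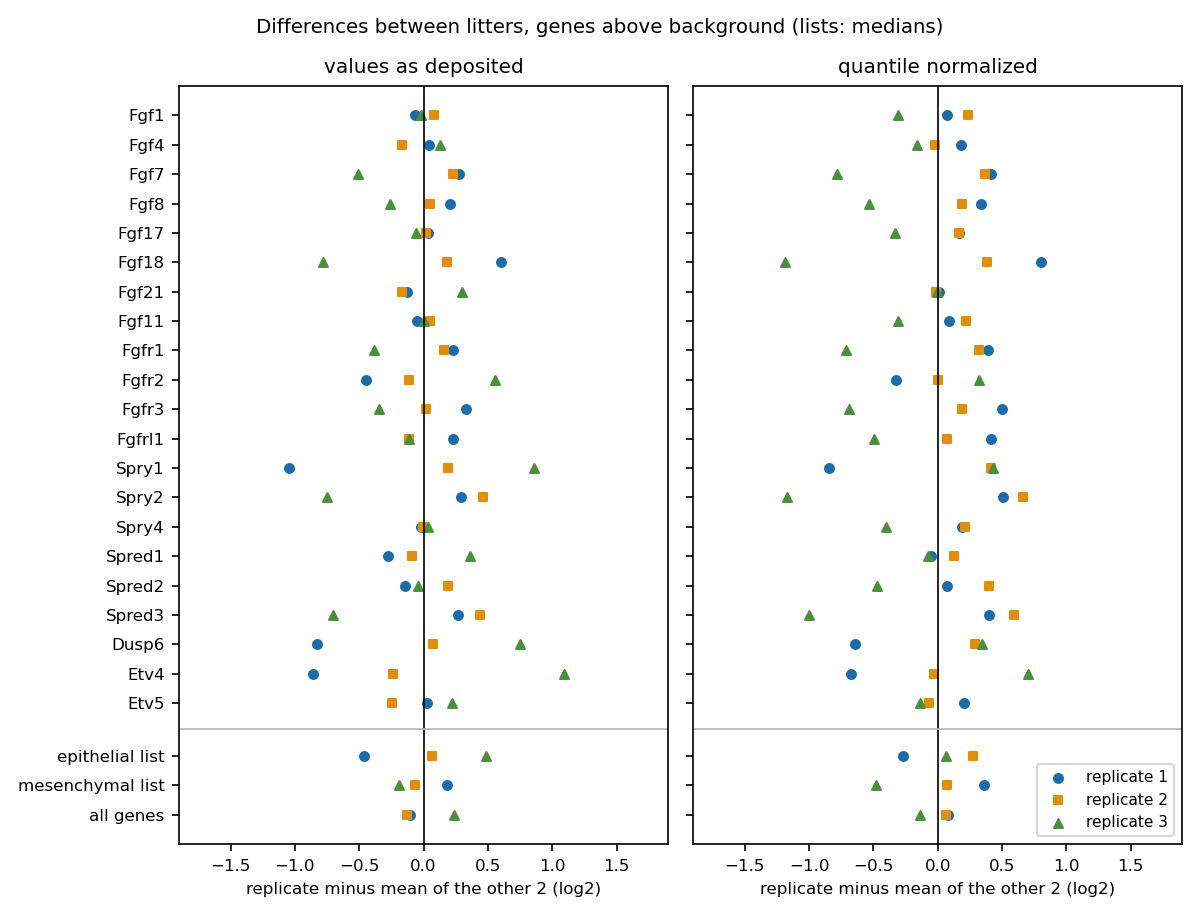
Each point is the log2 value of a replicate minus the mean of the other 2 replicates (horizontal axis, log2 units) for the 21 genes above background, with values as deposited on the left and after quantile normalization on the right. The bottom rows give medians of the epithelial markers, mesenchymal markers and all genes above background. Replicate 1 is lowest for Spry1, Dusp6, Etv4 and Fgfr2 in both panels, and replicate 3 is lowest for Fgf18 and Fgfr1 in both.

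The calls of most ligand genes depended on the setting, and those of the 8 genes called under every setting did not. With the 99th percentile of the receptor genes as threshold, 15 of the 39 genes were above background, against 47.8% of all genes, and Fgf18 was then the single paracrine ligand gene called. The receptor genes kept 4 calls and the feedback inhibitor genes 7 at this threshold. With tissue-restricted genes as background 8 of the 39 were called, against 24.1% of all genes, and with the brightest control 8, against 31.6%. The mean of all probe sets of a gene gave 21, against 53.1% of all genes. Leaving out cross-hybridising probe sets gave 21, against 54.7%, and a variance prior without trend 21, against 54.9%. Quantile normalization gave 22, against 55.3%. With dim genes left out of the fit, 30 of the 39 entered and 22 were called, against 79.3% of all genes that entered. Without replicate 1 there were 17 calls, against 53.1% of all genes, without replicate 2 there were 18, against 53.5%, and without replicate 3 there were 24, against 58.5%. With no test, 24 of the 39 genes exceeded the threshold on every array, against 58.6% of all genes, and 9 exceeded it on none.

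**Figure D4:**
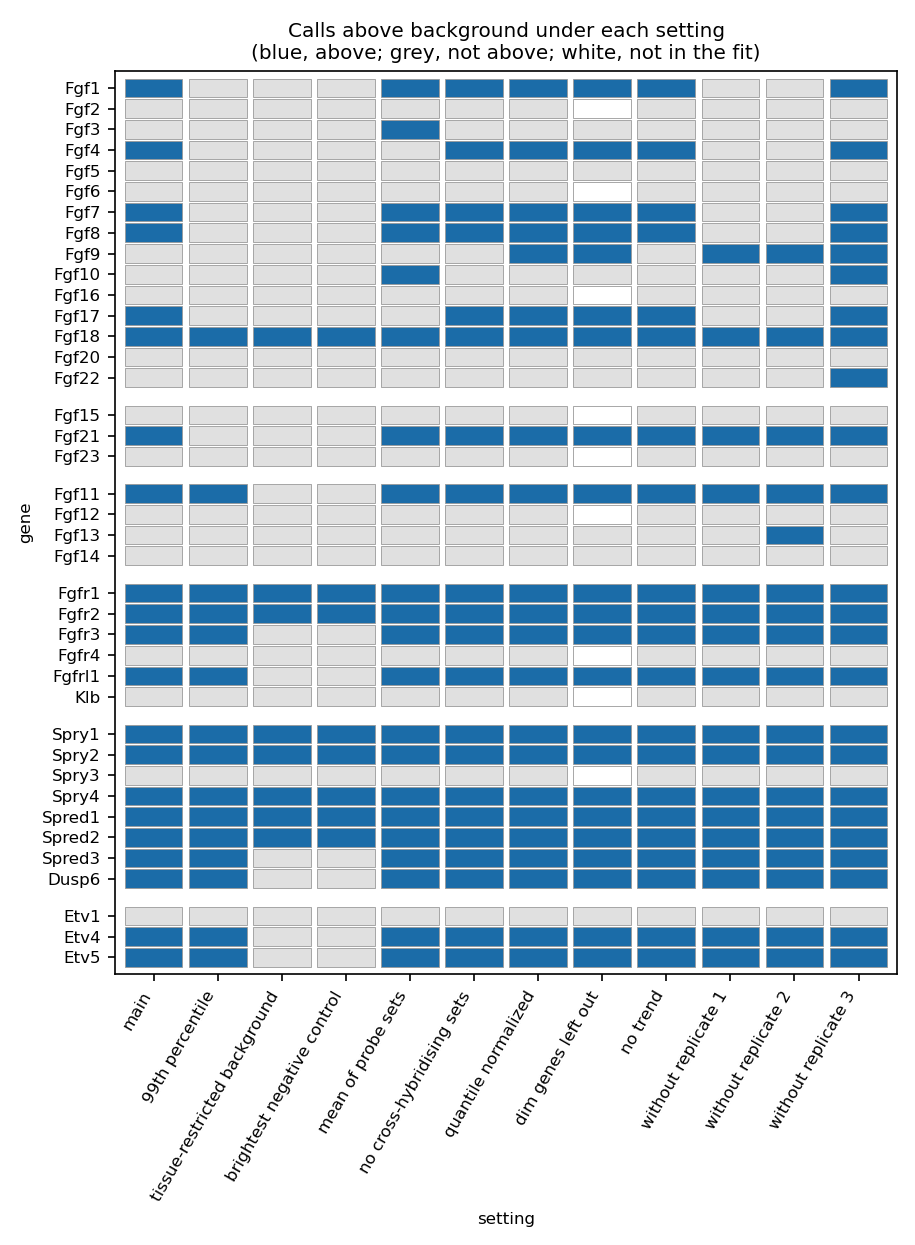
Rows are the 39 genes and columns the main setting and 11 alternatives, with blue for genes above background, grey for genes not above it and white for genes that did not enter the fit. Rows of Fgf18, Fgfr1, Fgfr2, Spry1, Spry2, Spry4, Spred1 and Spred2 are blue throughout, and the rows of most other ligand genes change between columns.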

How the data were processed

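RNA of 3 pools of sorted cells, 1 group, was measured on arrays after 25 cycles of cDNA amplification. The authors deposited log2 values of probe sets, made with RMA and affy per the submitters' processing notes, which give no versions or settings. Whether the arrays were normalized together is not given in the sources used here. The table held 45141 probe sets, of which 28898 had 1 gene symbol in the platform annotation. Those with several symbols (551) or none were left out. All 39 symbols matched RefSeq by Entrez ID. The brightest probe set represented a gene.

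From each log2 value the threshold of its array was subtracted, and limma 3.58.1 (R 4.3.3) tested whether the mean exceeded 0 (moderated SE, trend, one-sided, Benjamini-Hochberg over 17097 genes). The p-values leave out the uncertainty of the threshold. Tables and figures used Python 3.11.15, numpy 2.4.6, pandas 2.3.3 and matplotlib 3.10.9. The test was also run on simulated data, with thresholds, SDs and the levels of the other genes taken from the main fit. Of 50 genes each set 0.25, 0.5, 1 and 2 above the threshold, 54%, 74%, 90% and 98% were called. Of 200 genes set on it, 2% were called. The simulated thresholds were fixed and the noise was independent. The simulation therefore cannot show how often genes silent in these cells are called, and 13 of 47 tissue-restricted genes were called on the arrays.

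All members, 5 genes of the sort and, per pathway list, the first 3 genes above background and the first 2 not above it were named. Cic, Etv3, Elk3 and further sulfotransferase genes were named besides. Marker genes and the sequences shown were chosen after values were seen. The members and lists were chosen with earlier results of these data known. The number of arrays limits the precision.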

Additional observations from a re-analysis of the deposited data

Results flagged for a closer look

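Signal was found in probe sets that the comparisons left out because they carry several gene symbols. The 2 probe sets annotated to both Etv5 and Scpep1 lay 2.48 and 2.16 above the threshold on the log2 scale, with log2 values of 8.65, 8.52 and 8.56 and of 7.93, 7.97 and 8.88 on replicates 1, 2 and 3. The probe set annotated to Etv5 alone lay 1.32 above it. Groups of 3 arrays are too small for the check on single outlying samples.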

How the results depend on the processing

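Only 3 arrays of amplified RNA, without controls, limit each call, and signal over background is small for most ligand genes. No paired analysis was possible because there was 1 group. Thresholds from tissue-restricted genes and from the brightest control left 4127 and 5399 of all genes above background (main setting 9426), and 8 and 8 of the 39 members (21). Both of these settings gave 1 paracrine ligand gene, 2 receptor genes and 4 heparan sulfate genes (6, 4 and 7). They gave 0 endocrine ligand, 0 homologous factor and 0 ETS genes by limma, and 0 of each at an unadjusted p under 0.05. The 99th percentile gave 1 paracrine and 0 endocrine ligand genes (0 endocrine at an unadjusted p under 0.05). Leaving out a replicate gave 2 to 9 paracrine ligand genes and 1 to 2 homologous factor genes, and 17 to 24 members. These fits rest on 2 arrays each and lean on the variance prior. Probe sets tested separately, an alternative chosen after seeing the data, gave 20 members.

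Genes above background in the main setting fell below the stricter thresholds. Relative to the tissue-restricted threshold the distances were -0.90 for Fgf1, -1.04 for Fgf4, -1.07 for Fgf7, -1.17 for Fgf8, -1.12 for Fgf17, -0.90 for Fgf21, -0.62 for Fgf11, -0.16 for Fgfr3, -0.62 for Spred3, -0.18 for Etv5 and -0.67 for Il17rd. Relative to the brightest control they were -0.68 for Fgf1, -0.82 for Fgf4, -0.86 for Fgf7, -0.95 for Fgf8, -0.90 for Fgf17, -0.69 for Fgf21, -0.41 for Fgf11, -0.40 for Spred3 and -0.45 for Il17rd. Fgf8 stood at -0.039 under the 99th percentile, and Fgf4 at -0.35 with the mean of its probe sets. The tissue-restricted, control and 99th percentile thresholds are higher than that of the main setting, and the threshold of the probe set means is lower.

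The median litter difference of replicate 3 over the 21 members above background was -0.02 as deposited, -0.33 after quantile normalization -0.29 after subtracting the median of each array and 0.22 with the mean of all probe sets. For Spry2 on replicate 3 the mean of the probe sets turned the difference to 0.22, against -0.75 for the brighter one.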
